A study of Drosophila melanogaster with 6 samples.

Results

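A group of 4 cytochrome P450 genes and a pair of adjacent dehydrogenase genes were followed in whole adult flies: Cyp4e3, Cyp4s3, Cyp4aa1, Cyp6t1, CG2065 and CG2070. They were taken by gene symbol or CG number from the authors' deposited table, and make up 6 of the 251 genes that could be named there. Each had 1 probe set. The table compares arrays labelled DHR96 mutant, called mutant-labelled below, with arrays of Canton S, a wild-type laboratory strain that the series' design text calls genetically matched. There were 3 arrays of each, all from whole adults aged 7 days on standard food, with no further allele, agent or sex in the labels. Whether a group's 3 samples were collected separately is not stated in the labels, so p-values cover the spread among these arrays, and that spread may be purely technical.

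Cytochrome P450s are haem enzymes that use molecular oxygen and electrons from a reductase to oxidise small lipophilic compounds, both hormones and fatty acids of the animal's own and plant toxins or insecticides. The CYP4 and CYP6 families are both large in insects. CYP4 enzymes are best known, from mammals, for hydroxylating the end of fatty acid chains, and many insect CYP6 enzymes act on toxins. Short-chain dehydrogenases transfer hydrogen between an alcohol or ketone and a nicotinamide cofactor, and some act on steroids or retinoids. DHR96, now named Hr96, is a nuclear receptor known in Drosophila for roles in the response to xenobiotics and in the handling of dietary lipid and sterol.

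The comparison asks how the levels of these transcripts differ between the labelled mutant and its control. The values are probe set intensities on a linear scale, normalized between arrays by the authors. Array medians ran from 470.4 to 484.2 and the lowest value of an array from 97.2 to 103. Every value of the 6 genes lay well above these lowest signals, which are not a limit of detection. Cyp4s3 in Canton S, at 439, 470 and 426, lay below the median of each of those arrays (473, 478 and 474). The background had not been taken to 0, which may make folds of dim probe sets too small. The targeted gene, Hr96, read 527, 498 and 546 in Canton S and 977, 985 and 928 in the mutant-labelled arrays. It was higher there, the labels do not describe the mutation, and so its probe set does not check the labels. All directions rest on them. DHR96 mutant replicates 2 and 3 stood apart in the 12 poly-A spike-in control probe sets. Their mean log2 level over these controls was 7.81 and 7.78, against 8.14 in replicate 1 and 8.12 to 8.15 in Canton S. The dap 3' control was lower by more than this mean, at 437 and 468 against 1169 in replicate 1 and 920 to 1170 in Canton S. Each result is therefore also given for mutant replicate 1 alone against all Canton S arrays, from a fit with the spike-in level as a block, for each gene of the enzyme lists and by list for the tissue markers. That fit keeps all 6 arrays: the difference comes from mutant replicate 1, and the 2 low spike-in arrays still enter the estimate of the spread. The ratio of 3' to 5' signal for GAPDH was 1.309, 1.349 and 1.299 in Canton S and 1.353, 1.424 and 1.358 in the mutant-labelled arrays. For actin and eIF-4a the groups overlapped, with mutant replicate 2 the highest array. The part of these ratios in the differences was not tested.

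The deposited table is itself a selection made on these arrays. Its probe sets all have a fold of at least 1.301 in size and a q-value of at most 2.181%. The 6 genes were found through that table, so their differences were partly fixed by the choice, and the p-values below describe the data and are not independent evidence. In the authors' deposited table CG2070 and Cyp4aa1 lie near the lower limit, at folds of 1.329 and 1.333 in size, and Cyp4e3 has the largest, at 1.866.

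Of the 6 genes, 2 were higher and 4 were lower in the mutant-labelled arrays. Cyp4e3 and Cyp4s3 rose, by 1.85-fold and 1.38-fold. CG2065 fell by 1.59-fold, Cyp6t1 by 1.37-fold, and Cyp4aa1 and CG2070 by 1.32-fold each. These folds are on the log2(intensity + 16) scale. All 6 passed limma's adjusted p threshold of 0.05, and in all 6 the groups did not overlap. Among the 18769 probe sets tested, 6.96% passed, 3.29% as higher and 3.67% as lower, and the groups did not overlap in 30.9%. Among the 260 probe sets of the deposited table, 93.5% passed and 100% did not overlap, so nothing is read from the count of members. Of those 260, 180 are listed as higher and 80 as lower (69.2% and 30.8%). The 2 higher and 4 lower members were not tested against that split. The median log2 difference of the 6 genes was -0.40, against -0.0015 over all probe sets tested. The least fold of the deposited table keeps every member away from 0, so nothing is read from this contrast either.

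**Figure D1:**
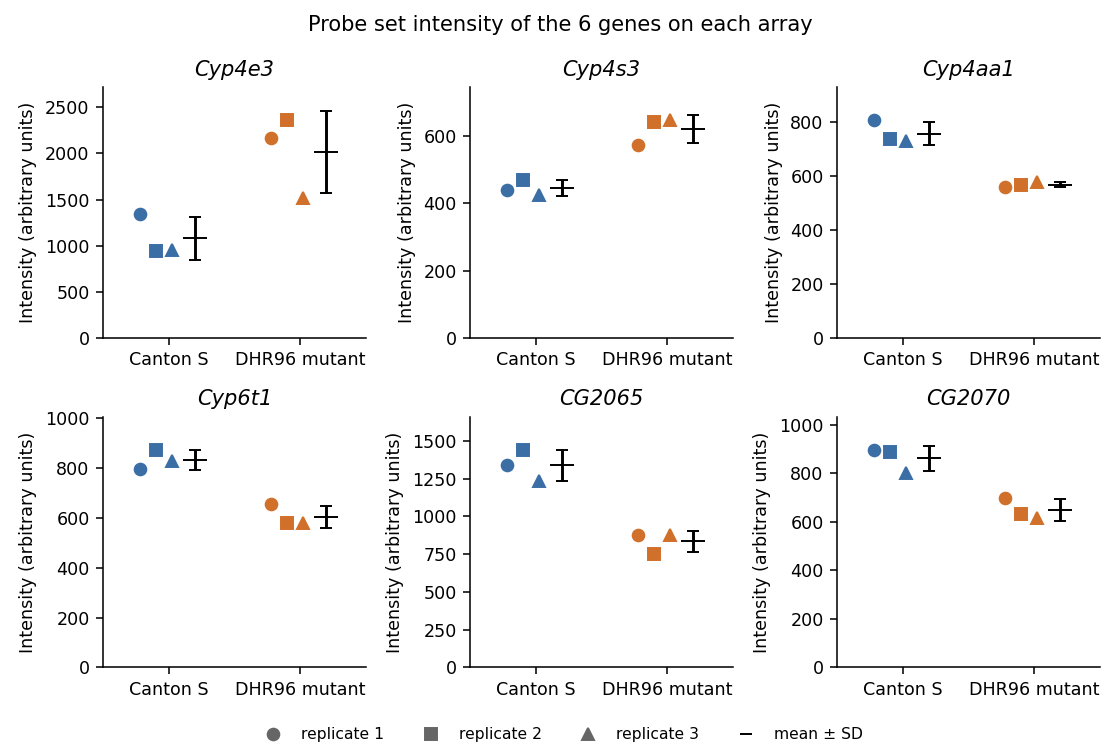
Probe set intensity (arbitrary linear units, axis from 0) of the 6 genes on each array, by group, with replicate shown by marker shape and the mean ± SD of 3 arrays beside the points. No gene has overlapping groups, and Cyp4e3 has the widest spread, with Canton S replicate 1 at 1348 and DHR96 mutant replicate 3 at 1518.

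Cyp4e3 (CG4105) had the largest difference and the largest spread. It is a P450 of the Malpighian tubules, the fly's renal organ, and is known in Drosophila for a part in tolerance to the insecticide permethrin. The deposited table annotates its product to the microsome and the lipid particle. Its intensities were 1348, 941 and 951 in Canton S and 2166, 2364 and 1518 in the mutant-labelled arrays. Canton S replicate 1 was the high array of its group and DHR96 mutant replicate 3 the low one, and the gap between them, 170 units, was 11.9% of the whole range. The means were 1080 ± 232 and 2016 ± 442 (SD, n = 3 each), a log2 difference of 0.89 (95% interval 0.45 to 1.32, limma adjusted p = 0.0360). Its standard error, 0.188, was larger than that of 98.5% of the probe sets tested.

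The call for Cyp4e3 was the least stable of the 6. Leaving out Canton S replicate 2 or 3, or replicate 1 or 2 of the mutant-labelled group, brought the log2 difference to 0.80, 0.81, 0.82 and 0.76, with limma adjusted p of 0.0923, 0.0965, 0.109 and 0.0870. Without Canton S replicate 1 or DHR96 mutant replicate 3, the arrays nearest the other group, it was 1.05 and 1.08 and passed. With robust variances limma's adjusted p was 0.107. With the spike-in block the difference was 1.01 (SE 0.277, limma adjusted p = 0.309).

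Cyp4s3 (CG9081), the other P450 that rose, is a CYP4 gene. Like Cyp4e3 and Cyp4aa1, it is annotated in the deposited table to steroid metabolism from electronic inference alone. It read 439, 470 and 426 in Canton S and 573, 642 and 648 in the mutant-labelled arrays. Replicate 1 was the low array of the mutant group, and it still lay 103 units above the highest Canton S array. The means were 445 ± 23.0 and 621 ± 41.7 (SD, n = 3 each), a log2 difference of 0.47 (95% interval 0.32 to 0.61, limma adjusted p = 0.00949). It passed with each array left out. Mutant replicate 1 alone gave 0.36 (SE 0.0763, limma adjusted p = 0.200).

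Cyp4aa1 (CG8302) fell. It is the CYP4 gene that the deposited table lists under hormone metabolism and insecticide breakdown, both as author statements without a traceable source. It read 808, 736 and 728 in Canton S and 560, 566 and 578 in the mutant-labelled arrays. The mutant arrays were nearly alike, with a coefficient of variation of 1.63% against 5.81% in Canton S, where replicate 1 was high. The means were 757 ± 44.0 and 568 ± 9.27 (SD, n = 3 each), a log2 difference of -0.40 (95% interval -0.52 to -0.29, limma adjusted p = 0.00744). In the spike-in block fit it was -0.42 (SE 0.0782, limma adjusted p = 0.156), so the size was no smaller without the 2 arrays that stand apart.

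Cyp6t1 (CG1644), the CYP6 gene of the set, also fell. It read 793, 872 and 825 in Canton S and 653, 577 and 577 in the mutant-labelled arrays. DHR96 mutant replicate 1 was the highest of its group and lay 140 units below the lowest Canton S array. The means were 830 ± 39.8 and 603 ± 43.7 (SD, n = 3 each), a log2 difference of -0.45 (95% interval -0.60 to -0.31, limma adjusted p = 0.00982). Against Canton S, mutant replicate 1 alone gave -0.34 (SE 0.0715, limma adjusted p = 0.200).

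**Figure D2:**
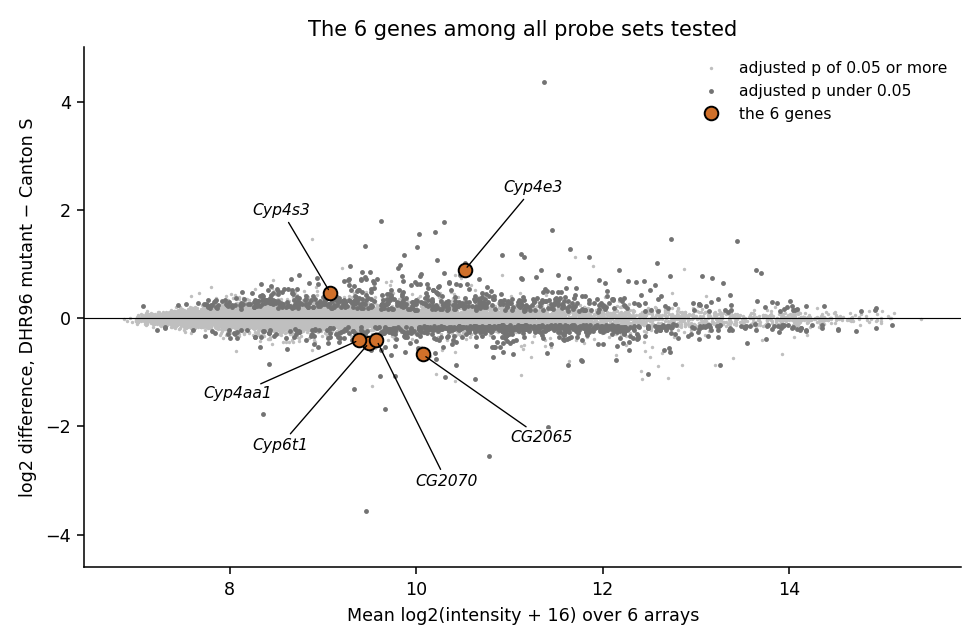
Mean log2(intensity + 16) over the 6 arrays (x axis) against the log2 difference, DHR96 mutant minus Canton S (y axis), for the 18769 probe sets tested, with the 6 genes in orange and probe sets past limma's threshold in dark grey. Cyp4e3 and Cyp4s3 lie above 0 at 0.89 and 0.47, and the other genes of the set between -0.67 and -0.40, well short of the largest changes on the array.

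The dehydrogenase genes CG2065 and CG2070 both fell, CG2065 by more. They lie next to each other in gene order, followed by Rdh1 (CG2064), a gene named for retinol dehydrogenase, with CG30495 and CG30491, genes of the same dehydrogenase list, close by on the other side. Of these neighbours within 3 places, none but CG2065 and CG2070 is named in the deposited table, and the levels of the others were not analysed here. CG2065 read 1338, 1442 and 1234 in Canton S and 877, 754 and 875 in the mutant-labelled arrays, a gap of 357 units between the groups. The means were 1338 ± 104 and 835 ± 70.4 (SD, n = 3 each), a log2 difference of -0.67 (95% interval -0.85 to -0.49, limma adjusted p = 0.00546). It passed with each array left out, and DHR96 mutant replicate 1 against Canton S gave -0.60 (SE 0.110, limma adjusted p = 0.155).

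CG2070 read 897, 886 and 801 in Canton S and 698, 631 and 615 in the mutant-labelled arrays. Canton S replicate 3 and DHR96 mutant replicate 1 came closest, 102 units apart. The means were 861 ± 52.8 and 648 ± 44.3 (SD, n = 3 each), a log2 difference of -0.40 (95% interval -0.55 to -0.25, limma adjusted p = 0.0164). Without Canton S replicate 1 or DHR96 mutant replicate 3 the difference was -0.37 in each case, with limma adjusted p of 0.0747 and 0.0529. The spike-in block fit gave -0.29 (SE 0.0803, limma adjusted p = 0.309).

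Whether the neighbours fell by the same amount was examined through the log2 ratio of CG2065 to CG2070 within each array. That ratio was 0.57, 0.69 and 0.61 in Canton S and 0.32, 0.25 and 0.50 in the mutant-labelled arrays, and the groups did not overlap. It was lower by 0.27 on average, with a two-sided exact permutation p of 0.1, the smallest that 3 arrays against 3 can give. Its absolute size depends on the probes and carries no meaning as a ratio of transcripts. The sequences of the probes were not used here, so signal shared between these related genes could not be assessed.

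**Figure D3:**
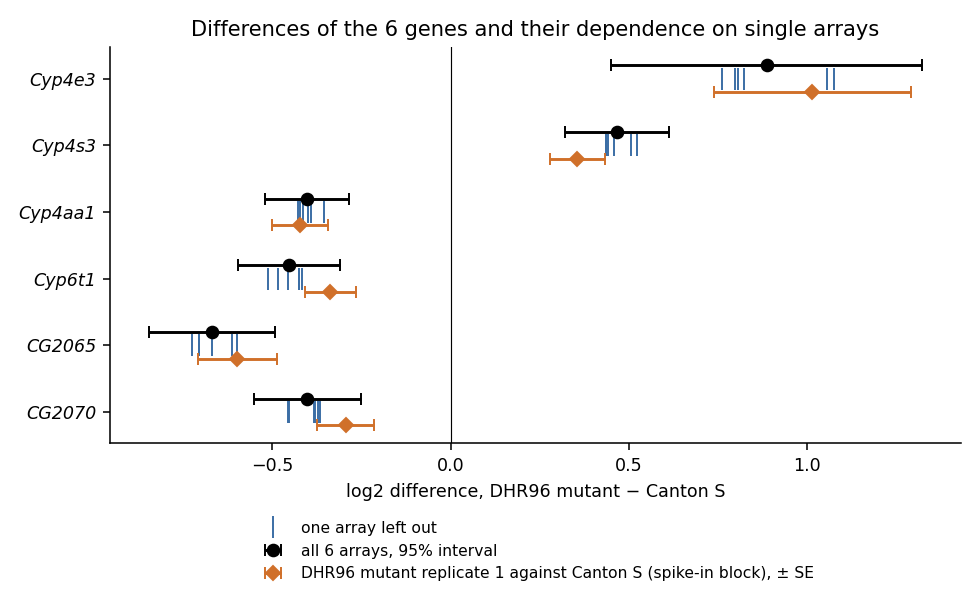
Log2 difference, DHR96 mutant minus Canton S (x axis), of the 6 genes with all 6 arrays (black, 95% interval), with each array left out in turn (blue ticks), and for DHR96 mutant replicate 1 against Canton S in the spike-in block fit (orange, ± SE). Every estimate keeps its side of 0, and those of Cyp4e3 with an array left out spread most, from 0.76 to 1.08.

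With the spike-in level as a block, none of the 6 genes (0 of 6) passed the limma threshold after adjustment, while 6 of 6 stayed under 0.05 before it. In that fit 0.165% of all probe sets passed and 10.6% had an unadjusted p under 0.05; for the probe sets of the deposited table these shares were 11.2% and 95%. The estimates of the 6 genes were 0.733 to 1.14 times those from all arrays. The direction was fixed by the choice of genes, since their groups do not overlap.

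Other genes of the same enzyme families were read from the deposited table. Of 85 P450 genes in the RefSeq gene table, 5 are named there, and all 5 passed, 2 as higher and 3 as lower. Nothing is read from that count, since 93.5% of the probe sets of the deposited table passed, against 6.96% of all tested. The median log2 difference of the 5, -0.40, pools higher and lower genes selected on these arrays, and nothing is read from it either. The fifth is Cyp6g1, known for resistance to DDT, which read 7672, 8164 and 8040 in Canton S and 5997, 4773 and 5099 in the mutant-labelled arrays. Its log2 difference was -0.59 (limma adjusted p = 0.00821), and -0.41 with the spike-in block (limma adjusted p = 0.0793). Thus the CYP6 genes named, Cyp6t1 and Cyp6g1, were both lower, and the CYP4 genes named went both ways. In the table as a whole 69.2% of probe sets are higher, and the split of the P450 genes was not tested against it.

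Of 44 genes on a list of short-chain dehydrogenases, 4 are named in the table, and 3 fell and 1 rose, where the table as a whole lists 80 probe sets as lower and 180 as higher. Besides CG2065 and CG2070, CG13833 fell and had mean intensities of 2154 ± 115 in Canton S and 1593 ± 76.2 in the mutant-labelled arrays (SD, n = 3 each). Its log2 difference was -0.43 (limma adjusted p = 0.00676), and -0.39 with the spike-in block (limma adjusted p = 0.181). Fbp2, a fat body protein also counted among the fat body markers and related in sequence to alcohol dehydrogenase, had means of 637 ± 47.2 and 1687 ± 624 (SD, n = 3 each), a log2 difference of 1.32 (limma adjusted p = 0.0202). The call of Fbp2 was not stable: without Canton S replicate 1, 2 or 3 its limma adjusted p was 0.0783, 0.0521 and 0.0648, and with robust variances 0.0726. With the spike-in block its difference was 0.81 (limma adjusted p = 0.266). Without Canton S replicate 1, 2 genes of the list passed.

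Of 70 genes with a glutathione S-transferase or UDP-glycosyltransferase symbol, enzymes that join a small group to oxidised compounds, 3 are named, all glutathione S-transferases. GstE1 and GstE3 fell, with log2 differences of -0.87 and -0.60, and GstE7 had -1.05 and did not pass (limma adjusted p = 0.0535). With the spike-in block the differences of GstE1, GstE3 and GstE7 were -0.69, -0.50 and -0.74 (limma adjusted p = 0.417, 0.318 and 0.528). This count rests on single arrays: 0 passed without Canton S replicate 3, and 1 passed without mutant replicate 1 or either of Canton S replicates 1 and 2. Since the table names only genes that met the authors' selection, the counts do not show that the other genes of these families did not change.

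**Figure D4:**
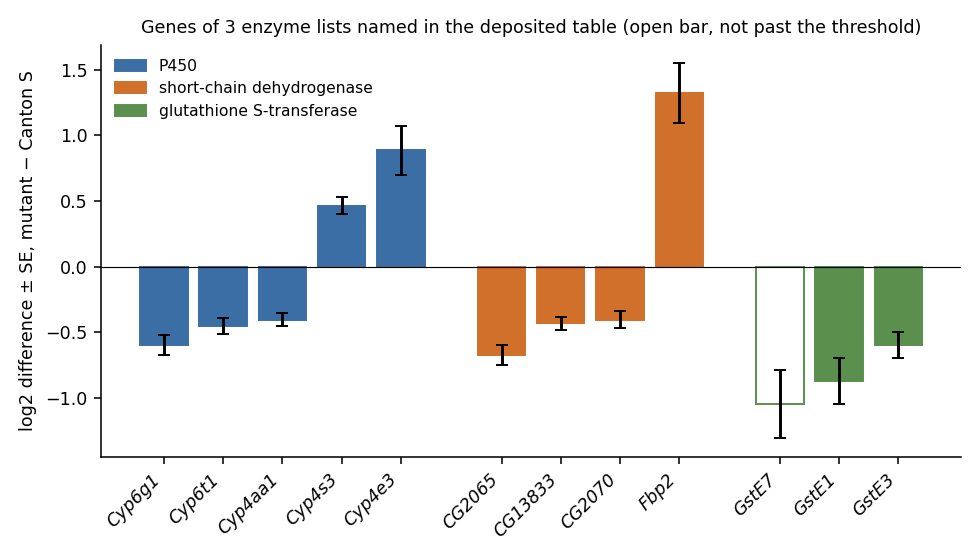
Log2 difference ± SE, DHR96 mutant minus Canton S (y axis, from 0), of the genes of 3 enzyme lists that the deposited table names; filled bars passed limma's threshold and the open bar did not. P450 genes stand on both sides of 0, dehydrogenase genes other than Fbp2 stand below it, and the glutathione S-transferases all stand below it.

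Markers of several tissues differed between the same arrays. All markers read here are named in the deposited table, so the authors had selected them on these arrays. The lists were also chosen with earlier results of these data known. With all arrays, 93.5% of the probe sets of the deposited table passed, against 6.96% of all probe sets tested. The marker counts below are therefore a description and not independent evidence. All 6 fat body genes were higher, of which 5 passed and Lsp1beta did not (log2 difference 0.62, limma adjusted p = 0.0514). The summed intensity of the 6 was 6481 to 8311 in Canton S and 13244 to 18631 in the mutant-labelled arrays. Of 7 midgut genes, 6 were lower and Npc1b was higher, with sums of 30255 to 32747 and 15720 to 19805. All 3 epidermis and cuticle genes were higher, with sums of 4743 to 5938 and 9001 to 11846. The male accessory gland marker Acp76A was also higher (8798 to 9778 and 11614 to 12601). With the spike-in block each difference comes from 1 mutant array, so only sizes are given here. Npc1b was higher in that fit, at 1.40, and the other 6 midgut genes were lower, from -2.59 to -0.53. The median log2 difference of the fat body genes was 1.19 with all arrays and 0.74 in that fit, that of the midgut genes -0.77 and -0.90, and that of the cuticle genes 0.89 and 0.73. Relative to its value with all arrays, the difference shrank most in Lsp1beta, Fbp2, Cht5 and Lsp1gamma, of which Lsp1beta, Lsp1gamma and Cht5 went from 0.62, 1.07 and 1.17 to 0.34, 0.68 and 0.73. Acp76A went from 0.43 to 0.35. No marker read 0 on any array. None of the 5 Malpighian tubule or 2 testis markers is named in the table, and they were not analysed here. The part of these shifts in the differences of the 6 genes was not tested, and in RNA from whole flies fewer cells of a type and less RNA per cell cannot be told apart.

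Among the genes around each member in gene order, within 3 places to either side, CG13116 near Cyp4e3 is named in the table besides the dehydrogenase pair. It fell, with means of 1173 ± 106 and 872 ± 65.3 (SD, n = 3 each) and a log2 difference of -0.42 (limma adjusted p = 0.0233), or -0.34 with the spike-in block (limma adjusted p = 0.364). In the RefSeq gene table the span of Cyp4aa1 overlaps those of COX6AL, mir-4919 and Strn-Mlck, the span of Cyp4s3 that of Rab3-GEF, and the span of Cyp6t1 that of a long noncoding RNA gene. Which of these transcripts the probe sets could also detect was not tested.

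The genes most like each member across the 6 arrays were sought among the other 250 named genes by Pearson's r of log2 values, as a description. All were chosen by the authors for a difference between the same groups, which raises every such r, so the value within groups is given beside it. The genes shown were picked for the highest r over the same arrays. That choice also raises the values within groups, so neither value is free of selection. Cyp4e3 was most like CG13001 (r = 0.98, 0.93 within groups) and MtnB (0.97, 0.96 within groups). MtnB encodes a metallothionein, a small metal-binding protein, and read 879, 583 and 571 in Canton S and 2274, 3041 and 1771 in the mutant-labelled arrays. Like Cyp4e3 it was highest in replicate 1 among the Canton S arrays and lowest in replicate 3 among the mutant arrays.

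Cyp6t1 was most like Mal-B2, an alpha-glucosidase gene, and Cyp6g1 (r = 0.99 for each, 0.91 within groups for each). Cyp4s3 was most like CG13676 and vanin-like (r = 0.997 and 0.996, 0.973 and 0.955 within groups), and Cyp4aa1 like CG30486 and the lipase gene CG31091 (0.995 and 0.987, 0.951 and 0.730 within groups). CG2065 was most like CG32696 and Ctns, which encodes the lysosomal cystine transporter cystinosin (r = 0.98 for each, 0.76 and 0.87 within groups). CG2070 was most like the lysosomal mannosidase gene LManI and CG4716 (r = 0.98 for each, 0.88 and 0.85 within groups). Cyp4e3 had 18 of the 250 genes at an r over 0.9, against 54 to 143 for the other genes of the set. These counts were not split by direction or taken within groups, and the deposited table lists 180 higher and 80 lower probe sets. Nothing is read from them. CG2065 and CG2070 had an r of 0.96 with each other, and 0.56 within groups. This was not particular to the neighbours. Cyp6t1 also had an r of 0.96 with each of CG2065 and CG2070, and 0.52 and 0.59 within groups.

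**Figure D5:**
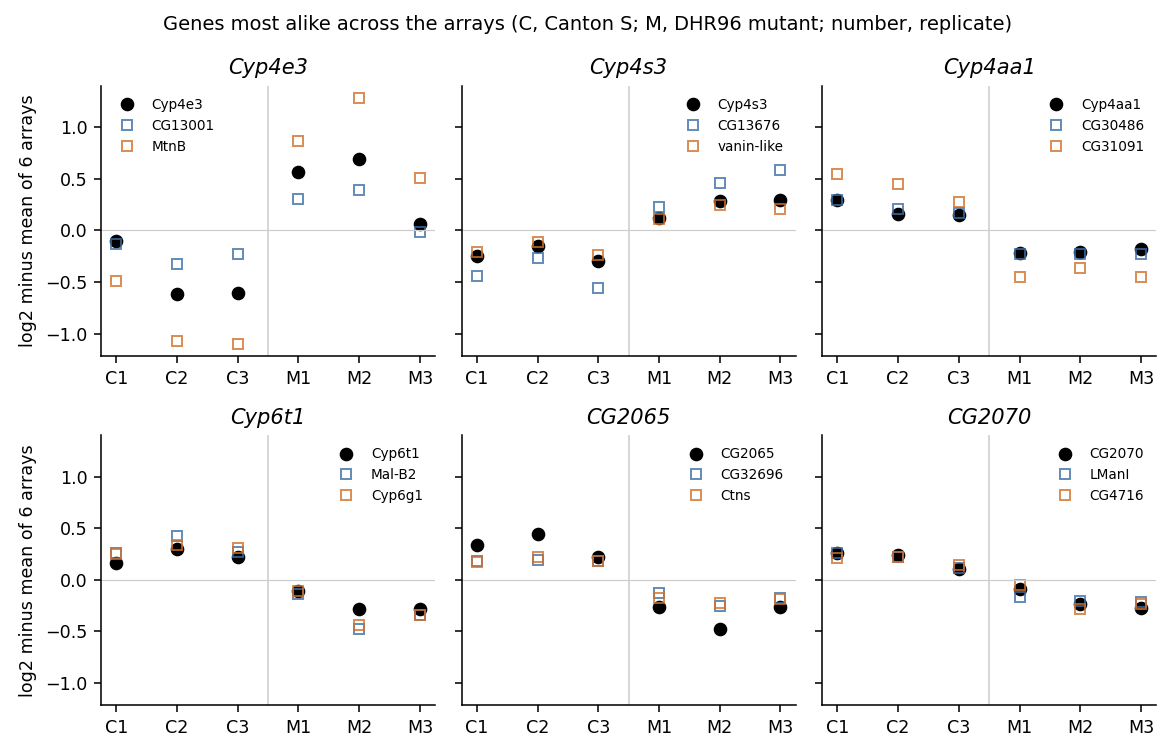
Log2(intensity + 16) minus the gene's own mean over the 6 arrays (y axis), for each of the 6 genes (black circles) and the named genes most like it (open squares), by array (C, Canton S; M, DHR96 mutant; the number is the replicate). In the Cyp4e3 panel MtnB shares the high C1 and the low M3 of their groups.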

How the data were processed

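Total RNA from 6 samples of whole adult flies was labelled with biotin and hybridised to Affymetrix arrays, per the labels' protocols. The deposited intensity values were already normalized between arrays by the authors. MAS5 is the tool listed in the submitters' processing notes, without a version, and the steps of background correction and summary are not stated. A second deposited table, per the file headers, gives the authors' SAM score, its log2 numerator, a fold with its sign and a q-value (percent) for 260 probe sets. The numerator equalled the mutant mean minus the Canton S mean within 5.68e-10.

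After 183 controls were set aside, log2(intensity + 16) of 18769 probe sets was modelled in limma 3.58.1 (R 4.3.3) with group as the term and an intensity trend in eBayes. P-values, two-sided, were adjusted over all of them by Benjamini-Hochberg, with a threshold of 0.05. The procedure was tested on simulated data.

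Genes were named from the deposited table alone, through CG numbers and the RefSeq gene table of Release 6 (251 of 260 probe sets matched); no genome build is named for the files, so coordinates are left out. The rule named all 6 members, list genes in the table, the 2 genes most alike to each member and named genes within 3 places in gene order; PPO1, hlk and Skel were named after their values were seen. Members and lists were chosen with earlier results of these data known. Alternatives were pseudocounts, scaling, a filter on dim probe sets, variance models, blocks and left-out arrays. The number of arrays limits the precision.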

Additional observations from a re-analysis of the deposited data

How the results depend on the processing

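None of the differences of the 6 genes changed sign under any of the 17 alternatives; with an array left out the sign is fixed by the lack of overlap. All 6 genes passed under each pseudocount (0, 1 and 64), quantile normalization, median centring, the filter on the dimmest 25% of probe sets and eBayes without a trend. With the spike-in level as a block, or without the 2 arrays of low spike-in, the log2 differences were 1.01 for Cyp4e3, 0.36 for Cyp4s3, -0.42 for Cyp4aa1, -0.34 for Cyp6t1, -0.60 for CG2065 and -0.29 for CG2070, and 0 of the 6 passed in either fit. In the same 2 fits the counts past the threshold were 0 and 0 for the P450 list, 0 and 1 for the dehydrogenase list, 0 and 0 for the detoxification list, and 31 and 62 over all probe sets. In both fits the difference is that of 1 mutant array against 3. The second drops the other mutant arrays, so the lone array is assumed to vary like Canton S, while in the first they still supply part of the spread (SE for Cyp4e3 0.277 and 0.197 in turn). Robust variances ended the call of Cyp4e3 (0.89) and left 1 detoxification gene; eBayes without a trend left 813 probe sets, and the cause was not tested.

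The labels do not say whether replicate numbers pair the arrays. The correlation of deviations between same-numbered arrays was 0.19, -0.22 and -0.24. Deviations from a group mean are tied together, so these correlations do not settle it. With the replicate block, 240 probe sets passed, with 3 P450 and 0 detoxification genes, and Cyp4e3 (0.89) and Cyp6t1 (-0.45) did not pass, both at limma adjusted p = 0.0572. With each array left out, 5 of the 6 genes passed each time; the log2 difference of Cyp4e3 ran from 0.76 to 1.08 and that of CG2070 from -0.46 to -0.37. The counts then ran from 4 to 5 for the P450 list, 2 to 4 for the dehydrogenase list, 0 to 2 for the detoxification list and 287 to 803 over all probe sets (287 without Canton S replicate 1), against 1306. Of the 1306, 47.2% were higher in the mutant-labelled arrays, and 57.6% of 1093 after quantile normalization.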

Other observations

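The deposited table annotates 11 genes to oxidoreductase or monooxygenase activity, a group formed after the values were seen. All 11 passed limma's threshold, 4 as higher and 7 as lower, and 5 of them are not among the 6 genes. Since 93.5% of the probe sets of the deposited table passed, against 6.96% of all tested, nothing is read from that count. Of the probe sets in the deposited table, 69.2% are higher, and the split of the 11 was not tested against it. Besides Cyp6g1 and CG13833, PPO1, a prophenoloxidase gene of the melanin-forming immune response, was lower in the mutant-labelled arrays, and hlk and Skel were higher. PPO1 had means of 553 ± 14.9 in Canton S and 390 ± 3.69 in the mutant-labelled arrays (SD, n = 3 each), a log2 difference of -0.49 (limma adjusted p = 0.00196). Skel went from 562 ± 10.3 to 794 ± 34.4 (0.48, limma adjusted p = 0.00246) and hlk from 1970 ± 128 to 2584 ± 19.7 (0.39, limma adjusted p = 0.00704). DHR96 mutant replicate 1 against Canton S gave log2 differences of -0.50, 0.44 and 0.38 for PPO1, Skel and hlk. The authors selected all 11 on these same arrays.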
